A study of Mus musculus with 12 samples.

Results

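The RNA of 7 mouse genes that build or serve epithelial cell layers was followed in embryonic stem cells after hydrogen peroxide: the keratin genes Krt8, Krt18 and Krt19, the junction genes Cldn6, Cdh1 and Tjp1, and the ion pump regulator Fxyd3. They are 7 of 8251 genes that the platform annotation names on the array, and every probe set assigned to one of these symbols alone was taken, 10 in all. The 7 were chosen with the differences between the groups of these same arrays in view. Their values are therefore described, with the standard errors of a model fitted to all probe sets, and are not tested.

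The cells were clone C2 of the line E14tg2a, which carries targeted sites for the endonuclease I-SceI, and the deposited data hold 12 MG_U74Av2 arrays. One group received 5 mM hydrogen peroxide for 30 min (n = 5), another 100 µM for 15 min (n = 4), and the control was held in PBS without peroxide (n = 3). The peroxide groups had 1 h in maintenance medium between exposure and RNA extraction. All groups come from 1 clone with the same targeted sites, the labels do not say whether replicates were separate cultures, and how long the control stayed in PBS, and whether it had the same recovery, is not given in the sources used here. A return to medium that the control may not have shared cannot be told apart from peroxide wherever PBS is the comparison. Concentration and exposure time differ together, so their parts cannot be told apart. If the replicates were not separate cultures, the p-values below measure technical spread.

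Keratins are the intermediate filament proteins of epithelia. A type II chain such as keratin 8 pairs with a type I chain such as keratin 18 or 19, and an unpaired chain is unstable. Claudins seal tight junctions, E-cadherin joins neighbouring cells in adherens junctions, and both kinds of junction are tied to the actin cytoskeleton. Embryonic stem cells hold one another through E-cadherin, and keratins 8 and 18 are among the first keratins made in the mouse embryo, in trophectoderm and then in endoderm.

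Krt8 and Krt18 lie on the same chromosome, and their products pair, yet they had different patterns over the 3 groups, and Cldn6 had another. For that reason the sequences around their start sites are given, from 250 bases before to 50 bases after the RefSeq start on GRCm38.p6, 5′ to 3′ along the gene. They are chr15:102004293-102004592 (minus strand) for Krt8, chr15:102027966-102028265 (plus strand) for Krt18 and chr17:23679115-23679414 (plus strand) for Cldn6. Capitals mark the matches to the 6 motifs searched on both strands.
Krt8: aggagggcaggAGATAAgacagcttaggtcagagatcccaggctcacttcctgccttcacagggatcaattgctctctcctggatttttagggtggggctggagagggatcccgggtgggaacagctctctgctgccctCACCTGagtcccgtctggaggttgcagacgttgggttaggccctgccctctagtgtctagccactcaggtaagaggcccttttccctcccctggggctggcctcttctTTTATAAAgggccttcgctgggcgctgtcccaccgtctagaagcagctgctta
Krt18: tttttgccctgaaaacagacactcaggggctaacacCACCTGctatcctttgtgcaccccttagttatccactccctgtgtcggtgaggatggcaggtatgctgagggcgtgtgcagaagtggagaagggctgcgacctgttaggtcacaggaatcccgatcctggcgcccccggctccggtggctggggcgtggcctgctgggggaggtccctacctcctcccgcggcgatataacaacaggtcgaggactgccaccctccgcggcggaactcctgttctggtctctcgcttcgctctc
Cldn6: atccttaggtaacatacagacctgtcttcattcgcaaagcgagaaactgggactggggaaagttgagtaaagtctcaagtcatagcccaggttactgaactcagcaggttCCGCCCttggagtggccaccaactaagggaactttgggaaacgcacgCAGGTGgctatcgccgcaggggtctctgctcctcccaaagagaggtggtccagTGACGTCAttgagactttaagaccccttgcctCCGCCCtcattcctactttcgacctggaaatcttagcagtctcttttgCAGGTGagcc

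The TATA box was searched as TATAAA, the site of GATA factors as AGATAA, the E-box of Snail and Zeb factors as CACCTG, the AP-1 site as TGANTCA, the CREB site as TGACGTCA and the Sp1 site as GGGCGG. The Krt8 window held AGATAA at -239, CACCTG at -111 and a pair of overlapping TATAAA matches on opposite strands at -3 and -1. The Krt18 window held CACCTG at -214. The Cldn6 window held TGACGTCA at -40, CACCTG on the other strand at -93 and 41, and GGGCGG on the other strand at -140 and -8. TATAAA stood in 13.6% of all 32851 RefSeq windows of this length, AGATAA in 11.2%, CACCTG in 20.2%, TGANTCA in 7.81%, TGACGTCA in 1.79% and GGGCGG in 35.7%. RefSeq windows were matched for 5 of the 7 genes. That of Tjp1 (chr7:65371195-65371494, minus strand) held GGGCGG on the other strand at -68 and -50, and that of Fxyd3 (chr7:31076648-31076947, minus strand) held none of the 6. A match in these letters is a description of the window and says nothing about a factor bound there.

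The values are MAS5 signals, a linear brightness per probe set that the deposited table gives on 1 common scale for all arrays. Changes are on the scale of log2(signal + 10.1), where 10.1 signal units is the 20th percentile of all values. This offset understates the changes of dim probe sets. Over probe sets, which are no independent replicates, log2 signals correlated at 0.958 to 0.978 between arrays of a group and at 0.921 to 0.957 between arrays of different groups. PBS replicate 1 stood apart from the other PBS arrays. Its 3′ to 5′ signal ratio for Actb, a measure of RNA integrity, was 1.99, against 0.871 and 0.921 on the other PBS arrays, and was 1.05 to 1.49 on the treated arrays. The same ratio for Gapdh was 0.779 on PBS replicate 1, between 0.588 and 0.831 on the other PBS arrays, and 0.776 to 0.931 on the treated arrays. Values without PBS replicate 1 are given where it moved a result. All 16 pluripotency markers on the array passed the filter on low values, and their summed signal was 35841 to 41203 at 5 mM, 35144 to 40216 at 100 µM and 29551 to 32788 in PBS. No pluripotency marker lay below 10.1 on every array of a group. The bright end of the scale differed by group: the brightest probe set read 7206 to 8904 on the PBS arrays and 14976 to 34685 on the treated arrays. Sums of linear signals, here and below, lean on bright probe sets. In them a difference in scale and one in the markers cannot be told apart.

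Of the 10 probe sets of the 7 genes, 7 passed the filter, 1 for each gene. The others are second probe sets of Krt18 (162191_at), Krt19 (102121_f_at) and Tjp1 (162298_r_at). These read 0.558 to 14.5 signal units, at or below the offset on most arrays, and are not used further. A suffix with f marks probes shared within a gene family, and r marks probes picked under relaxed rules. Fxyd3 passed narrowly, at a mean level of 5.04 (log2) against a limit of 4.87, and it passed through its PBS arrays. Probe sets differ in affinity, so levels are not ranked between genes.

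Among the keratins, Krt8 and Krt18 were lowest at 5 mM, and Krt19 was lowest at 100 µM. Krt8 (101009_at), which encodes the type II partner of both other chains, read 156, 108, 144, 126 and 134 at 5 mM, against 610.1, 332 and 355 in PBS. Every 5 mM array lay below every PBS array. The change was -1.58 ± 0.18 (SE), or 2.99-fold lower, and -1.31 without PBS replicate 1, whose 610.1 was the highest Krt8 value of all. At 100 µM, Krt8 read 355, 402, 373 and 375. These values overlapped those in PBS, with a change of -0.14 ± 0.19 that turned to 0.13 without PBS replicate 1. Without that array, every 100 µM array lay above both remaining PBS arrays, the closest being 355.4 at 100 µM and 355.2 in PBS. The 5 mM arrays were 2.71-fold below the 100 µM arrays (-1.44 ± 0.17), again with no overlap. In bulk RNA, fewer cells that express a gene and less of its RNA per cell cannot be told apart.

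Krt18 (94270_at), the type I partner of keratin 8 in simple epithelia, was lower at both doses. It read 58.4, 45.8, 55.7, 51.0 and 52.0 at 5 mM, against 283, 154.5 and 165 in PBS, a 3.25-fold difference (-1.70 ± 0.23, and -1.44 without PBS replicate 1). At 100 µM it read 135, 107, 70.0 and 91.3, which was 1.88-fold below PBS (-0.91 ± 0.24, and -0.65 without PBS replicate 1). The 5 mM arrays were also 1.73-fold below the 100 µM arrays (-0.79 ± 0.21). None of the 3 groups overlapped another, so Krt18 stood lowest at 5 mM, higher at 100 µM and highest in PBS. With 4 times the offset, the change at 5 mM was -1.34, since that offset is large next to the treated values.

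At 100 µM, then, Krt18 lay below PBS and Krt8 overlapped it. Within each array, the log2 value of Krt8 minus that of Krt18 was 1.08 to 1.27 at 5 mM (mean 1.19 ± 0.08, SD, n = 5), against 1.06 to 1.08 in PBS (1.07 ± 0.01, SD, n = 3). At 100 µM it was 1.33 to 2.26 (1.83 ± 0.38, SD, n = 4), above every array of the other groups. The difference on PBS replicate 1 was 1.08, against 1.06 on each of the other PBS arrays, although its Krt8 and Krt18 signals were both the highest of the 12. Such a difference shows unequal change of the 2 probe sets and not which of them moved.

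Krt19 (92550_at), a type I keratin that also pairs with keratin 8, had its lowest values at 100 µM. There it read 58.8, 33.9, 44.8 and 42.7, against 213, 138 and 117 in PBS, a 2.97-fold difference (-1.57 ± 0.24). The groups did not overlap, and the change was -1.34 without PBS replicate 1 and -1.18 with 4 times the offset. At 5 mM it read 113, 74.2, 124, 127 and 123.5, which overlapped PBS (-0.42 ± 0.23, and -0.19 without PBS replicate 1). Between the treatments, Krt19 was 2.21-fold higher at 5 mM than at 100 µM (1.15 ± 0.21), with no overlap. The order of doses was therefore opposite to that of Krt8 and Krt18.

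**Figure D1:**
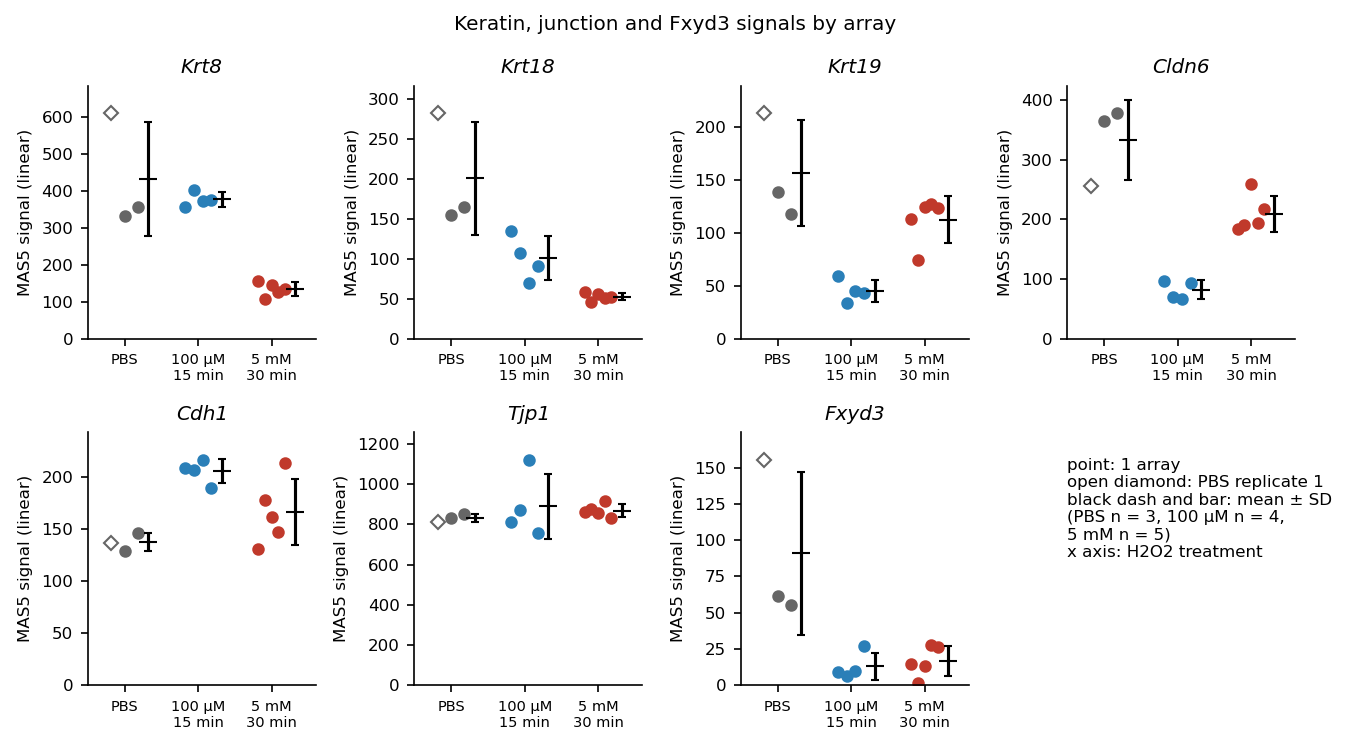
MAS5 signal (linear axis from 0) of each gene on each of the 12 arrays, by treatment; each point is 1 array, the open diamond is PBS replicate 1, and the black dash and bar are the mean ± SD (n = 5 at 5 mM, 4 at 100 µM, 3 in PBS). Krt8 and Krt18 are lowest at 5 mM, Krt19 and Cldn6 lowest at 100 µM, Cdh1 highest at 100 µM, Tjp1 overlaps throughout, and Fxyd3 is lower at both doses.

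Of the junction genes, Cldn6 shared with Krt19 the low values at 100 µM, Cdh1 was higher there, and Tjp1 overlapped in every comparison. Cldn6 (93703_at), a claudin of embryonic epithelia and of pluripotent cells, read 97.4, 69.4, 67.2 and 93.1 at 100 µM, against 256, 364.5 and 379 in PBS. Every 100 µM array lay below every PBS array, by 3.73-fold on average (-1.90 ± 0.19, and -2.07 without PBS replicate 1). At 5 mM it read 184, 191, 259, 195 and 217, so that 1 array at 259 lay just above PBS replicate 1 at 256. The change at 5 mM was -0.64 ± 0.18, and without PBS replicate 1, the lowest of the PBS arrays for Cldn6, it was -0.81 and the groups no longer overlapped. Cldn6 was 2.40-fold higher at 5 mM than at 100 µM (1.26 ± 0.17), with no overlap.

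Cdh1 (98140_at), the gene of E-cadherin, was the only one of the 7 with every array of a treated group above all 3 PBS arrays. At 100 µM it read 209, 207, 217 and 189, against 137, 129 and 147 in PBS, a 1.46-fold difference (0.55 ± 0.17). Scaling all arrays to a common median left 0.37 of it, with the groups still apart. At 5 mM it read 131, 178, 162, 148 and 213.5, a wider spread that overlapped both PBS (0.24 ± 0.16) and 100 µM (-0.31 ± 0.15).

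Tjp1 (99935_at) is the gene of ZO-1, the scaffold that ties tight junctions to actin, and its groups overlapped in every comparison. It read 859, 876, 858, 916 and 829.6 at 5 mM, against 810.4, 829.2 and 853 in PBS (0.06 ± 0.12). At 100 µM it read 810.2, 871, 1123 and 756 (0.08 ± 0.13), a wider spread that held the highest and the lowest Tjp1 value of all 12 arrays. The 5 mM and 100 µM arrays differed by -0.02 ± 0.11. Scaling to a common median turned the sign at both doses, to -0.01 at 5 mM and -0.11 at 100 µM.

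Fxyd3 (103059_at) belongs to the FXYD family, small membrane proteins that tune the sodium pump, and is known from simple epithelia. It read 14.4, 1.69, 12.9, 27.4 and 26.1 at 5 mM and 9.16, 6.16, 9.85 and 26.8 at 100 µM, against 156, 61.3 and 55.5 in PBS. Both treated groups lay below PBS without overlap, and they overlapped each other (0.17 ± 0.38). The changes were -1.90 ± 0.42 at 5 mM and -2.07 ± 0.43 at 100 µM, or 3.74-fold and 4.2-fold lower. Their size is uncertain, because several treated values lie at or below the offset of 10.1. With 4 times the offset they were -1.15 and -1.23, and without PBS replicate 1 they were -1.48 and -1.64.

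**Figure D2:**
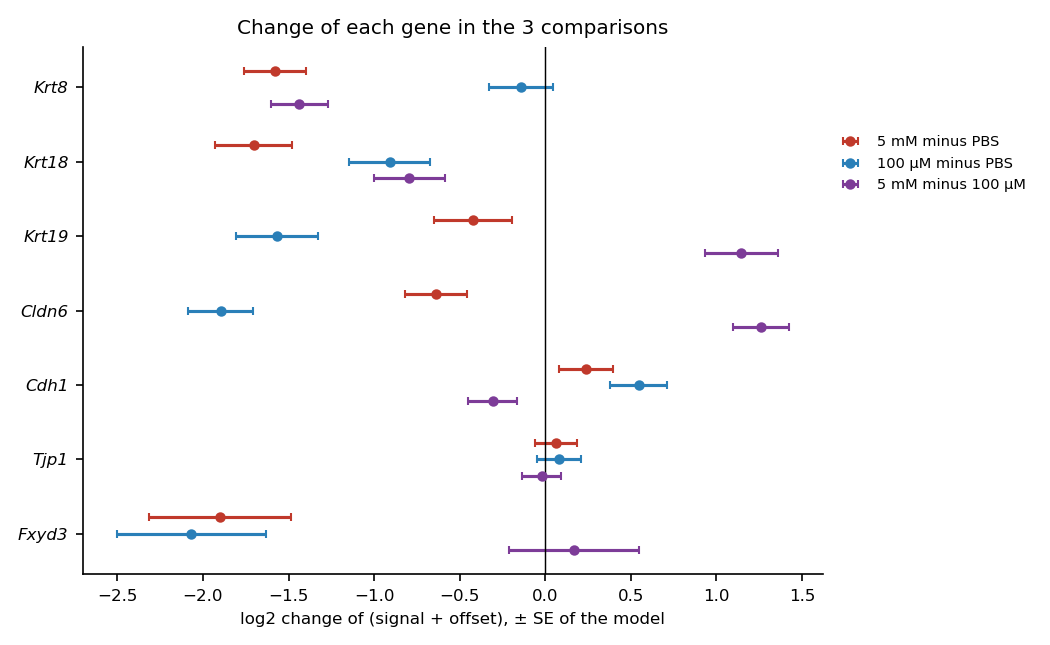
Log2 change of (signal + 10.1) for each of the 7 genes, with bars of ± SE from the model over 12 arrays, for 5 mM minus PBS, 100 µM minus PBS and 5 mM minus 100 µM. Krt8 is at -1.58 at 5 mM and -0.14 at 100 µM, while Cldn6 is at -0.64 at 5 mM and -1.90 at 100 µM.

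Counted over the 7 genes, 3 lay wholly below PBS at 5 mM (Krt8, Krt18 and Fxyd3), none wholly above, and 4 overlapped. Limma called 11.7% of the 8695 probe sets tested at 5 mM against PBS, 24% at 100 µM against PBS and 27.4% between the doses. Over the same probe sets, 10.4% lay wholly below PBS and 9.61% wholly above at 5 mM. At 100 µM, 4 genes lay wholly below PBS (Krt18, Krt19, Cldn6 and Fxyd3), 1 wholly above (Cdh1), and 2 overlapped, beside 13.5% below and 18.4% above over all probe sets. Between the doses, 2 genes were wholly lower at 5 mM than at 100 µM (Krt8 and Krt18) and 2 wholly higher (Krt19 and Cldn6), beside 13% lower and 11.3% higher over all probe sets. The genes were chosen on these contrasts, so nothing is read from these counts, and the comparisons with PBS share the same 3 arrays. Without PBS replicate 3, 5 genes did not overlap PBS at 5 mM: Krt19 then also lay below and Tjp1 above. Leaving out 1 treated array at 5 mM also moved this count to 4. Cdh1 then lay above PBS without 5 mM replicate 1, Cldn6 below without replicate 3, and Tjp1 above without replicate 5. Without PBS replicate 1, Cldn6 also lay below PBS at 5 mM, and 6 genes did not overlap PBS at 100 µM, with Krt8 and Cdh1 above.

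Keratins 8 and 18 are also made by primitive endoderm, the extraembryonic lineage that embryonic stem cells can give rise to, and markers of that lineage moved over these groups. The marker lists were chosen with earlier results of these data known, which their counts and p-values do not take into account. Of 21 primitive endoderm markers tested, 13 fell and 1 rose at 5 mM against PBS (limma, median change -1.58, with 6.84% of all 6414 genes lower and 5.36% higher). At 100 µM, none fell and 6 rose (median 0.28, with 12.7% of all genes lower and 11.9% higher). The median change over all genes was -0.01 at 5 mM and 0.04 at 100 µM. The marker that rose at 5 mM was Apoe, which carries lipids and which many cell types make, and its bright signal dominates the sum over the list. The summed signal of all 21 was 13190 to 15793 at 5 mM and 17774 to 19348 at 100 µM, against 12609 to 18369 in PBS. Leaving out Apoe, a choice made after its values were seen, the sum of the other 20 was 1885 to 2153 at 5 mM and 11010 to 12087 at 100 µM, against 7713 to 12082 in PBS. PBS replicate 1 gave the upper end of the PBS range, and the other PBS arrays gave 7713 and 7963. No marker of the list lay below 10.1 on every array of a group.

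In their brightest probe sets, Dab2, Gata6, Foxa2, Col4a1 and Cubn each averaged lowest at 5 mM and highest at 100 µM. Dab2, an endocytic adaptor of primitive endoderm, averaged 28.6 ± 13.5 at 5 mM, against 577 ± 67.4 in PBS (SD, n = 5 and 3), and was 15.9-fold lower (limma adjusted p = 2.4e-08). At 100 µM it averaged 1088 ± 91.6 (n = 4) and was 1.87-fold higher than in PBS (adjusted p = 0.0147, limma). Its dimmer probe sets were lower by less at 5 mM, with changes of -1.25 ± 0.23 (limma adjusted p = 0.00206) and -0.62 ± 0.31 (limma adjusted p = 0.218). Gata6, a transcription factor that specifies the lineage, averaged 635 ± 90.7 at 100 µM, against 182 ± 36.2 in PBS (limma adjusted p = 0.000242), while its dimmer probe sets did not pass at 100 µM (limma adjusted p = 0.116 and 0.997). Foxa2, a forkhead factor of endoderm, averaged 234 ± 19.0 at 100 µM, against 36.4 ± 29.4 in PBS (limma adjusted p = 0.000109). At 5 mM it read 8.68 to 13.7, which overlapped PBS at 8.38 to 67.0. Col4a1 and Cubn, also on the list, fell at 5 mM by 3.56 and 3.50 (limma adjusted p = 2.31e-09 and 3.44e-08). A dimmer probe set of Cubn did not pass there (0.34 ± 0.39, limma adjusted p = 0.629).

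On the 5 mM arrays Krt8 and Krt18 were low, and so was the endoderm sum without Apoe. The sum of all 21 markers overlapped PBS there, and the sums given next leave out Apoe. Krt8, Krt18, Krt19 and Fxyd3 were each highest on PBS replicate 1, which had the highest sum in PBS. Cldn6 and Tjp1 had their lowest PBS values there. At 100 µM, with sums of 11010 to 12087, Krt8 read 355 to 402. On PBS replicate 1, with a sum of 12082, Krt8 read 610. Krt18, Krt19, Cldn6 and Fxyd3 were low at 100 µM, where that sum was at or above 11010. The part of endoderm cells in the values of the 7 genes was not tested.

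**Figure D3:**
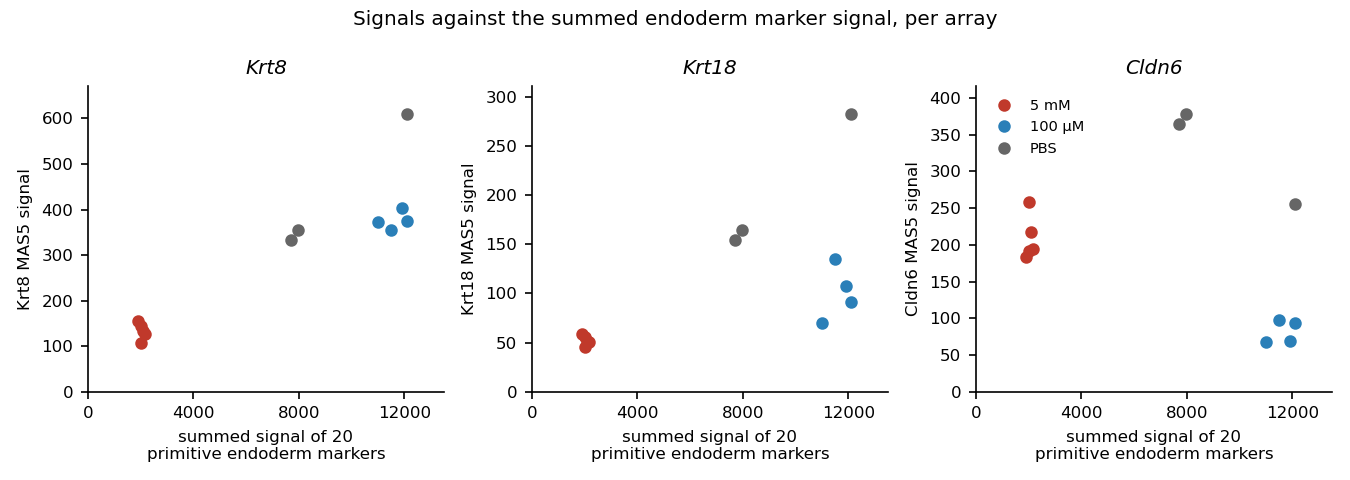
Signal of Krt8, Krt18 and Cldn6 on each array (linear axes) against the summed signal of 20 primitive endoderm markers (Apoe left out), with 5 mM, 100 µM and PBS arrays in different colours. The 5 mM arrays sit at sums of 1885 to 2153 with the lowest Krt8 and Krt18, while Cldn6 is lowest on the 100 µM arrays, at sums of 11010 to 12087.

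Markers of other cell types were counted in the same way. Over all genes 5.36% rose and 6.84% fell at 5 mM, and 11.9% rose and 12.7% fell at 100 µM. With lists this short, nothing is read from the counts alone. Of 9 trophectoderm markers, 2 rose and none fell at 5 mM, and 3 rose and 1 fell at 100 µM. Their summed signal was 1067 to 1581 at 5 mM and 1135 to 1417 at 100 µM, against 853 to 998 in PBS. Of 16 pluripotency markers, 4 rose and 1 fell at 5 mM, and 5 rose and 2 fell at 100 µM. Of 11 fibroblast markers, limma called none at 5 mM (3 at an unadjusted p under 0.05), and 2 rose and 1 fell at 100 µM. The fibroblast sum was 1554 to 2065 at 5 mM and 1943 to 2310 at 100 µM, against 1504 to 1749 in PBS. The part of these cells in the values of the 7 genes was not tested.

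The genes whose pattern was most like that of 3 of the 7 were found by Pearson's r of log2 values over the 12 arrays. The arrays fall into 3 groups and share their scaling, so r mainly reflects group means and is a description. It was not computed without PBS replicate 1, which held the highest Krt8 value. For Krt8 the 4 most alike were Sparc (r = 0.985), a secreted matrix protein, Lama1 (0.976), a laminin chain of basement membranes, Phldb2 (0.968) and Hs3st1 (0.966), a heparan sulfate sulfotransferase. Sparc and Lama1 are on the endoderm list. Sparc averaged 175 ± 49.97 at 5 mM, against 1146 ± 769 in PBS, and fell by 2.49 on the log2 scale (limma adjusted p = 3.71e-05). Lama1 averaged 317 ± 38.8 at 5 mM, against 1634 ± 629 in PBS, and fell by 2.27 (limma adjusted p = 3.88e-07).

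For Cldn6 the 4 most alike were Gldc (r = 0.984), of the glycine cleavage system, Cyhr1 (0.978), Tbl2 (0.974) and Ehmt2 (0.969), a histone H3 lysine methyltransferase. For Cdh1 the values of r were lower: Ltk (0.926), a receptor tyrosine kinase, Gm8096 (0.918), Rxra (0.915), a retinoid receptor, and Foxl1 (0.901). None of these 8 genes is on an epithelial or marker list used here.

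Other genes of epithelial structure were listed from general knowledge, with earlier results of these data known. Of 149 listed, 99 were on the array and 73 were tested. At 5 mM against PBS, 3 rose, 6 fell and 64 did not pass (12.3% called, median change 0.07). Over all genes 5.36% rose and 6.84% fell, so this share is near the background. At 100 µM, 11 rose, 11 fell and 51 did not pass (30.1% called, median 0.10), with 11.9% of all genes higher and 12.7% lower. Between the doses, 13 were higher and 14 lower at 5 mM than at 100 µM (37% called, median -0.04), with 13.8% of all genes higher and 15.2% lower. The counts against PBS rest on few control arrays. Without PBS replicate 2 or without PBS replicate 3, 5 were called at 5 mM, and at 100 µM 12 were called without PBS replicate 2 and 14 without PBS replicate 3. Scaling to a common median moved the split at 100 µM to 5 rising and 18 falling, and quantile normalization to 9 and 15.

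Of 13 other keratins tested, limma called none at 5 mM (4 at an unadjusted p under 0.05, median change 0.30), and at 100 µM 1 rose and 1 fell (median 0.35). With 5.36% of all genes higher and 6.84% lower at 5 mM, and 11.9% higher and 12.7% lower at 100 µM, these counts are near the background. The gene that rose was Krt4, a keratin of mucosal lining epithelia, and the one that fell was Krt17, a keratin of skin appendages. Neither call against PBS is firm: without PBS replicate 2 the limma adjusted p was 0.0731 for Krt4 and 0.145 for Krt17. Dimmer probe sets of Krt17, left out of these counts, disagreed. The one with relaxed-rule probes was higher at 100 µM (1.19 ± 0.38, limma adjusted p = 0.0307). The family-type one was lower there (-0.72 ± 0.18, limma adjusted p = 0.0108) and higher at 5 mM (0.71 ± 0.18, limma adjusted p = 0.0161). Between the doses, 1 of the 13 was higher and 1 lower at 5 mM, with 13.8% of all genes higher and 15.2% lower. Krt17 was higher by 1.43 and Krt4 lower by 0.78 (limma adjusted p = 0.000344 and 0.00167), and both calls held in every alternative. The family-type Krt17 probe set was also higher (1.43 ± 0.16, limma adjusted p = 9.19e-06). The relaxed-rule one did not pass (-0.59 ± 0.33, limma adjusted p = 0.202).

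Of 13 tight junction genes, 1 rose and 2 fell at 5 mM, and none rose and 3 fell at 100 µM. The shares over all genes were 5.36% higher and 6.84% lower at 5 mM, and 11.9% higher and 12.7% lower at 100 µM. With so few genes, nothing is read from the counts alone. Epcam, an adhesion molecule that binds claudins, averaged 69.6 ± 14.0 at 5 mM, against 145 ± 16 in PBS, and fell by 0.97 (limma adjusted p = 0.00408). At 100 µM it averaged 99.9 ± 18.9 and did not pass (-0.51 ± 0.20, limma adjusted p = 0.0797). Cldn4, another claudin, averaged 635 ± 101 at 5 mM, against 305 ± 103 in PBS (1.08 ± 0.26, limma adjusted p = 0.0137), and lost its call without PBS replicate 1 (adjusted p = 0.0659, limma). Cldn7 averaged 54.6 ± 18.8 at 5 mM, against 121 ± 50.5 in PBS, and fell by 1.02 (limma adjusted p = 0.0294), and at 100 µM it averaged 56.6 ± 4.32 and fell by 0.91 (adjusted p = 0.0339). Both Cldn7 calls were lost without PBS replicate 2 and without PBS replicate 3, among others, with limma adjusted p up to 0.177 at 5 mM and 0.192 at 100 µM, and its probe set is of the family type. Ybx3, which binds ZO-1 and RNA, averaged 753 ± 183 at 100 µM, against 1353 ± 310 in PBS, and fell by 0.85 (limma adjusted p = 0.00719). Of the claudins, Cldn6 had its lowest mean at 100 µM and Cldn4 its highest at 5 mM.

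Among 12 adherens junction genes, 1 fell at 5 mM, and 2 rose and 3 fell at 100 µM. Over all genes 5.36% rose and 6.84% fell at 5 mM, and 11.9% rose and 12.7% fell at 100 µM. Ctnnb1, the β-catenin that binds E-cadherin, did not pass at either dose (0.24 ± 0.15 and 0.39 ± 0.16). Vcl, vinculin, which links cadherin complexes to actin, averaged 879 ± 150.5 at 100 µM, against 504 ± 24.9 in PBS, and rose by 0.77 (limma adjusted p = 0.00205). Lima1, an actin-binding protein, averaged 227 ± 61.1 at 100 µM, against 380.2 ± 13.8 in PBS, and fell by 0.75 (limma adjusted p = 0.00761). Its fall at 5 mM (adjusted p = 0.0192) was lost without PBS replicate 2 or without PBS replicate 3, with limma adjusted p up to 0.0707.

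Of 13 genes of desmosomes and of the linkers that anchor keratin filaments, 1 fell at 5 mM, and 2 rose and 2 fell at 100 µM. The shares over all genes were 5.36% higher and 6.84% lower at 5 mM, and 11.9% higher and 12.7% lower at 100 µM. Itga6, an integrin chain of hemidesmosomes that also sits at the base of other epithelial cells, averaged 176 ± 31.6 at 5 mM, against 379 ± 48.4 in PBS, and fell by 1.08 (limma adjusted p = 0.000479). It averaged 408 ± 53.4 at 100 µM and did not pass there (0.10 ± 0.17). Plec, plectin, which ties keratin filaments to other structures, averaged 90.9 ± 12.9 at 100 µM, against 209.9 ± 15.8 in PBS, and fell by 1.13 (limma adjusted p = 0.000231). Pkp2, a desmosomal plaque protein read by a family-type probe set, averaged 409 ± 91.7 at 100 µM, against 861 ± 31.7 in PBS, and fell by 1.08 (limma adjusted p = 0.000363). Between the doses, Pkp2 was 2.86-fold higher and Itga6 2.26-fold lower at 5 mM than at 100 µM (limma adjusted p = 1.87e-06 and 3.16e-05). Between the doses alone, these are the 2 orders seen in Krt19 and Cldn6 and in Krt8 and Krt18. Against PBS the likeness is incomplete. Pkp2 averaged 1185 at 5 mM, with every array above PBS, and did not pass (0.44 ± 0.16, limma adjusted p = 0.0863). A dimmer probe set of Pkp2 had the other sign there (-0.25 ± 0.22, limma adjusted p = 0.506). It fell at 100 µM (-1.03 ± 0.23, limma adjusted p = 0.00407). Between the doses it was higher at 5 mM by 0.79 ± 0.20 (limma adjusted p = 0.00712). Krt19 and Cldn6 averaged below PBS at 5 mM. At 100 µM, Itga6 overlapped PBS while Krt18 lay below it. Of 6 gap junction genes, limma called none at 5 mM (none at an unadjusted p under 0.05 either), and 1, Gja1, rose at 100 µM. Its probe set is of the family type, and the call was lost in 7 of 22 alternatives. Among these were a common median (limma adjusted p = 0.346) and leaving out PBS replicate 2 or PBS replicate 3. A dimmer probe set of Gja1 was lower at 5 mM than in PBS (-1.18 ± 0.25, limma adjusted p = 0.00572).

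Of 5 genes of the FXYD family and the sodium pump, limma called none at 5 mM (none at an unadjusted p under 0.05), and 3 rose and none fell at 100 µM. Over all genes 5.36% rose and 6.84% fell at 5 mM, and 11.9% rose and 12.7% fell at 100 µM. With 5 genes, nothing is read from these counts alone, nor from the absence of falls. Fxyd1 averaged 127 ± 29.1 at 100 µM, against 51.3 ± 33.8 in PBS, and rose by 1.26 (limma adjusted p = 0.0149). Fxyd2 averaged 66.9 ± 11.6 at 100 µM, against 29.8 ± 7.94 in PBS, and rose by 0.95 (limma adjusted p = 0.0233). Atp1b1, a β subunit of the pump, averaged 184 ± 32.5 at 100 µM, against 111 ± 7.42 in PBS, and rose by 0.67 (limma adjusted p = 0.0088). Its probe set is of the family type. Atp1b2 and Atp1b3, also β subunits, did not pass there (limma adjusted p = 0.48 and 0.752). A dimmer probe set of Atp1b1 was higher than PBS at both doses, by 1.82 ± 0.39 at 5 mM and by 1.21 ± 0.41 at 100 µM (limma adjusted p = 0.0066 and 0.0394). None of the 3 calls held in every alternative. The limma adjusted p reached 0.0685 for Fxyd1 and 0.0885 for Fxyd2 on leaving out PBS arrays, and 0.0664 for Atp1b1 under scaling to a common median.

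**Figure D4:**
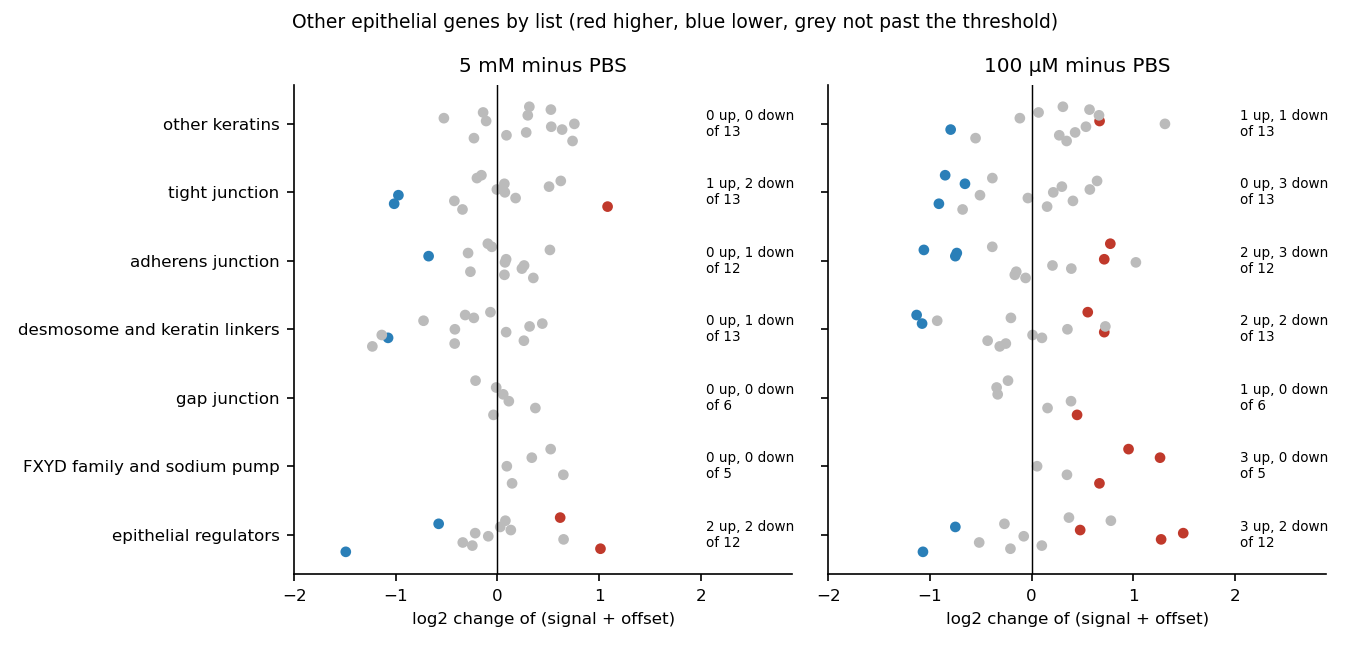
Log2 change of (signal + 10.1) of each of the 73 other epithelial genes tested, by list, for 5 mM minus PBS (left) and 100 µM minus PBS (right); each point is 1 gene, and red, blue and grey mark genes that were higher, lower or not past a limma adjusted p of 0.05. At 5 mM 3 genes are red and 6 blue, and at 100 µM 11 are red and 11 blue.

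Of 12 regulators and surface genes of epithelial state, 2 rose and 2 fell at 5 mM, and 3 rose and 2 fell at 100 µM. Over all genes 5.36% rose and 6.84% fell at 5 mM, and 11.9% rose and 12.7% fell at 100 µM. Klf4, a transcription factor of epithelia and of pluripotent cells, averaged 3380 ± 241 at 100 µM, against 1201 ± 171 in PBS, and rose by 1.49 (limma adjusted p = 3.63e-06). At 5 mM it averaged 1029 ± 122 and did not pass (-0.22 ± 0.13). Anxa2, an annexin at the membrane, averaged 326 ± 46.4 at 5 mM and 439 ± 48.4 at 100 µM, against 928 ± 47.3 in PBS. It fell at both doses, by 1.49 (limma adjusted p = 2.07e-06) and by 1.07 (limma adjusted p = 0.000106). Cd24a, a surface glycoprotein, averaged 691 ± 39.2 at 5 mM, against 341 ± 72.5 in PBS, and rose by 1.01 (limma adjusted p = 0.000151).

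Of 7 mesenchymal genes and repressors of E-cadherin, limma called none at 5 mM (2 at an unadjusted p under 0.05), and 2 rose and none fell at 100 µM. The shares over all genes were 5.36% higher and 6.84% lower at 5 mM, and 11.9% higher and 12.7% lower at 100 µM. With 7 genes, nothing is read from the counts alone. Snai1, a repressor of Cdh1, averaged 25.9 ± 17.5 at 5 mM, against 126 ± 41.4 at 100 µM, and was 4.11-fold lower (limma adjusted p = 0.000673). Against PBS, at 60.4 ± 23.5, neither the value at 5 mM (limma adjusted p = 0.0936) nor that at 100 µM (adjusted p = 0.11) passed. The genes that rose at 100 µM were Fn1 and Zeb1. Fn1, fibronectin, averaged 889 ± 137 at 100 µM, against 551 ± 69.2 in PBS, and rose by 0.68 (limma adjusted p = 0.00554). Zeb1, another repressor of Cdh1, averaged 115 ± 23.2 at 100 µM, against 64.3 ± 11.98 in PBS, and rose by 0.75 (limma adjusted p = 0.0131), a call lost without PBS replicate 2 or without PBS replicate 3 (limma adjusted p up to 0.0552). The part of these repressors in the Cdh1 values was not tested.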

How the data were processed

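RNA of 12 samples was measured on MG_U74Av2 arrays. The deposited intensities are MAS5 signals, per the submitters' processing notes, and the MAS5 version is not given in the sources used here. Trimmed means of the arrays were equal to within 0.0195%, so the deposited scale was kept. Values were taken as log2(signal + 10.1). Of 12488 probe sets, 66 controls were left out and the 8695 above the 30th percentile of mean level were tested with limma 3.58.1 in R 4.3.3, with a mean per group over all 12 arrays, a variance trend, two-sided tests and Benjamini-Hochberg adjustment at 0.05. The brightest tested probe set stood for each of 6414 genes. Names came from the platform annotation (10833 probe sets with 1 symbol, 396 with several), updated through RefSeq, which also gave the start-site sequences.

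The 7 genes and all lists were chosen with earlier results of these data known. Named from each list were up to 3 called genes, those that moved furthest, or else the 1 gene that moved furthest. In the text, values are given mainly for those whose call held in every alternative, which is a choice made after the values were seen, as is the naming of Ctnnb1. The fit was tested on simulated data. Alternatives were other scalings, offsets, filters, variance models and array weights, and leaving out each array. Arrays have no read depth, and their number limits the precision.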

Additional observations from a re-analysis of the deposited data

Results flagged for a closer look

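In 8 of 134 groups of 4 or 5 arrays checked, 1 array lay far from the others, measured by its gap to the nearest of them against the range of the group (Dixon's criterion). Chance alone marks about 1 in 20 groups.

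For the genes described above, 1 array at 5 mM read 74.2 for Krt19 (92550_at), below the others at 113 to 127. The dim second probe set of Krt18 (162191_at) read 8.03 on 1 array at 5 mM, above 0.558 to 1.72 on the others. That of Krt19 (102121_f_at) read 12.7 on 1 array at 100 µM, above 1.23 to 2.58. Both of these values lie near the offset of 10.1. Among the other genes, 1 array at 5 mM read 196.6 for Col4a1, above 129.6 to 139.3, and 1 read 66.8 for Cubn, above 24.6 to 36.1. At 100 µM, 1 array read 49.7 for Fxyd2, below 70.1 to 74.0, 1 read 3737 for Klf4, above 3232 to 3306, and 1 read 233 for Lefty1, below 264.5 to 269.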

How the results depend on the processing

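All changes of the 7 brighter probe sets that are described above as not overlapping kept their direction under every alternative run. The probe sets called at 5 mM against PBS were 1018, and became 1655 with array quality weights, 597 with the replicate number as a block, and 493 to 1019 on leaving out 1 array, with 493 without PBS replicate 2 and 600 without PBS replicate 3. At 100 µM against PBS, leaving out 1 array gave 1425 to 2134 (2087 with all). The other epithelial genes called at 5 mM were 9, against 18 with array quality weights and 5 to 11 on leaving out 1 array. At 100 µM they were 22, against 12 to 23. Of the 7 genes, 3 to 5 did not overlap PBS at 5 mM on leaving out 1 array. Scaling to a common median moved the median change at 100 µM to -0.09, against 0.08, and the split of calls to 311 higher and 614 lower at 5 mM (494 and 524 with the deposited scale), 574 and 1497 at 100 µM (1110 and 977), and 1412 and 871 between the doses (1113 and 1272). The other epithelial genes then split into 2 higher and 7 lower at 5 mM, and 14 and 7 between the doses. Dppa5a, a pluripotency gene whose change at 5 mM was 0.66, had -0.45 with quantile normalization. The causes were not tested. Replicate numbers did not pair the arrays: same-numbered arrays of different groups correlated at -0.18 to 0.15 in their deviations over 10 pairs, 2 of them over 0.1, and 4 of 11 arrays correlated best with their own number. With the block, 1852 probe sets were called at 100 µM and 2055 between the doses.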
